A study of Homo sapiens with 6 samples.

Results

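The 8 genes described here set how much sterol a cell makes and takes up, and they were measured in neural stem cells given X5050 or solvent. They are the transcription factor genes SREBF1 and SREBF2, the escort gene SCAP, the retention genes INSIG1 and INSIG2, the ubiquitin ligase genes RNF145 and MYLIP, and the sterol carrier gene STARD4. They were chosen by name, with earlier results of these data known. Each was read from the probe set of the array that is annotated to that 1 symbol. All 8 were found, each with 1 such probe set, among 18417 gene symbols measured.

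The cells were neural stem cells at passage 14 derived from SA-01, a single line of human embryonic stem cells. Both groups were plated on polyornithine and laminin and treated 5 h later for 24 h, the solvent group with DMSO at 0.1% and the compound group with X5050 at 100 µM. The series title names X5050 as an inhibitor of REST, a repressor of neuronal genes. Total RNA of 3 independent cultures was hybridised to 6 Affymetrix arrays, 3 per group, and the design text was read as each culture giving a DMSO and an X5050 sample.

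Cells hold cholesterol near a set level by feedback on the SREBP proteins, transcription factors made as precursors in the membrane of the endoplasmic reticulum (ER). When sterol is scarce, SCAP carries the precursor to the Golgi, where proteases release the active factor. When sterol is plentiful, INSIG proteins hold SCAP and its cargo in the ER. SREBF2 encodes the form best known for cholesterol genes and SREBF1 the forms best known for fatty acid genes. INSIG1, STARD4 and SREBF2 are themselves among the textbook targets of the active factor, whereas MYLIP and SREBF1 are textbook targets of LXR, the receptor that senses oxidised sterols. The brain makes its own cholesterol rather than taking it from the blood.

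The stretch of DNA just before the gene start is where SREBP binds at many of its targets, so it is shown for the 3 genes that fell and, for comparison, for SREBF1. Each sequence is the 250 bases before the RefSeq start in the assembly GRCh38.p14, written in the direction of transcription. Capitals mark matches to TCACCCC, the core of the classical sterol regulatory element, to the E-box CACGTG and to the NF-Y box CCAAT, on either strand. SREBF2 is at chr22:41832855-41833104 (plus strand), INSIG1 at chr7:155297628-155297877 (plus strand), STARD4 at chr5:111512536-111512785 (minus strand) and SREBF1 at chr17:17836987-17837236 (minus strand).
SREBF2: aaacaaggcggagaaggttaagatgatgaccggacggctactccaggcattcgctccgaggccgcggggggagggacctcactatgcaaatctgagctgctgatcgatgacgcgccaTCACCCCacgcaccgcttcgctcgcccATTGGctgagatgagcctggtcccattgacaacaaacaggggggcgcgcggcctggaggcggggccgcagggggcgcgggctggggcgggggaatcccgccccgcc
INSIG1: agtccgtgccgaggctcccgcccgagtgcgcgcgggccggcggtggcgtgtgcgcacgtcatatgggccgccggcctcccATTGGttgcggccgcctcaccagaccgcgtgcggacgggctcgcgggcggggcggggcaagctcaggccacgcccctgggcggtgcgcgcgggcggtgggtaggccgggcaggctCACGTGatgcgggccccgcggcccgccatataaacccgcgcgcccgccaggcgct
STARD4: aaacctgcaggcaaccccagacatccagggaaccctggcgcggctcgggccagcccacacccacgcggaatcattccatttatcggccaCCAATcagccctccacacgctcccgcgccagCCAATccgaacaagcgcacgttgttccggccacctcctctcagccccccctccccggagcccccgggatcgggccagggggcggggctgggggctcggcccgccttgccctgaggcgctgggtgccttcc
SREBF1: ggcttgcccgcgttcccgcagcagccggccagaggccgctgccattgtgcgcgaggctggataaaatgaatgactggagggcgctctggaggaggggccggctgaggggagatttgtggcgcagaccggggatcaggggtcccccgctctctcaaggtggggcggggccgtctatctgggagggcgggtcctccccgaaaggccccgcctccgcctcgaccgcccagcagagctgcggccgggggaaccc
SREBF2 held the core on its own strand, inside the run ATCACCCCAC that begins 134 bases before the start, with a CCAAT box on the other strand at 106. That run of 10 bases was read out of the SREBF2 window itself, and 12 of the 35114 such windows of the table hold it, that of SREBF2 among them. The core alone was in 2 of the 8 genes, SREBF2 and INSIG2, and in 4.80% of windows. INSIG1 held an E-box beginning 55 bases before the start and a CCAAT box at 170, and STARD4 held a CCAAT box at 161 and at 130. SREBF1 held no match to the motifs in capitals in its window, alone among the 8 genes. The other genes that did not fall held some: INSIG2 the core, SCAP an E-box, MYLIP CCAAT boxes, and RNF145 an E-box and a CCAAT box. Holding such a match therefore did not set apart the genes that fell. E-boxes were in windows of 3 of the 8 genes (INSIG1, SCAP and RNF145) and in 6.35% of all windows. CCAAT boxes were in 5 of the 8 genes (SREBF2, INSIG1, STARD4, MYLIP and RNF145) and in 32.0% of windows. The GC box GGGCGG was in all 8 genes and in 42.6% of windows. INSIG2 has 2 windows in the table, RNF145 has 5 and each other gene, SREBF1 among them, has 1. Any other start of SREBF1, and DNA outside these windows, was not searched, so a missing match does not speak for the whole gene. A gene was counted if any window matched, whereas the percentages count single windows. By single windows the 8 genes held the core in 2 of 13, the E-box in 3, the CCAAT box in 5 and the GC box in 9. These are matches of letters, and binding was not measured.

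INSIG1, STARD4 and SREBF2 fell with X5050, while the other 5 genes, with changes of 0.028 to 0.70, did not pass the test. Values are log2 signals, a change is X5050 minus DMSO, and the test was limma with the culture as a block. P-values were adjusted by the Benjamini-Hochberg method over all 19460 tested probe sets, and a gene passed at an adjusted p under 0.05. In that fit 3 of the 8 genes fell and 0 rose, against 0.308% of all tested probe sets that fell and 0.190% that rose (0.498% in either direction). The genes were chosen with earlier results of these data known, so shares above those of all probe sets are a description and no independent support. At an unadjusted p under 0.05 the count was 6 of 8, against 14.5% of all probe sets. The X5050 arrays lay entirely below the DMSO arrays for 3 of the 8 and entirely above for 2, SCAP and RNF145, where the shares over all probe sets were 7.41% and 7.51%. The median size of the change, without its sign, was 0.42 for the 8 genes and 0.093 for all probe sets. The latter include dim probe sets, whereas the 8 genes stood at percentiles 42.1 to 84.4 by mean signal. The part of signal level in this contrast was not tested. The calls were made with the pairing alone: without the replicate block 0 of the 8 genes and 0 of 19460 probe sets passed in limma, and 5 of the 8 had an unadjusted p under 0.05 (9.37% of all probe sets). They were also lost without culture 3 (0 of 8, and 0 probe sets in all), or when the unnamed and multi-gene probe sets were tested too.

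**Figure D1:**
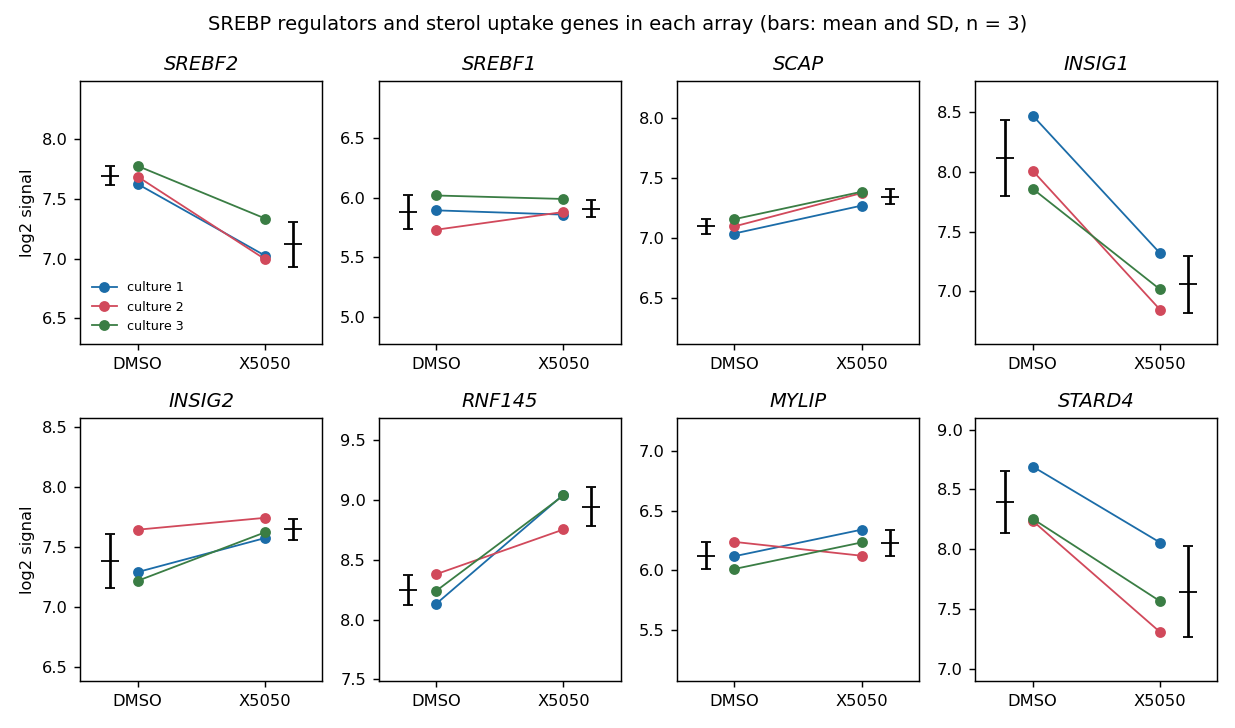
Log2 signal of each gene (vertical axis, the same height of scale in every panel) in DMSO and X5050, with a line joining the arrays of a culture and bars for mean and SD (n = 3). All lines of SREBF2, INSIG1 and STARD4 go down and all lines of RNF145, SCAP and INSIG2 go up, while SREBF1 and MYLIP each have lines in both directions.

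SREBF2, the gene of the factor that drives cholesterol synthesis and uptake, read 7.62, 7.69 and 7.77 with DMSO and 7.02, 6.99 and 7.34 with X5050 in cultures 1, 2 and 3. The highest X5050 array was 0.29 below the lowest DMSO array, and culture 3 was the highest in both groups. The gene dropped by 0.58 log2 units, or 1.49-fold (SE 0.093 in the paired fit, 95% interval -0.79 to -0.36), with an adjusted p of 0.0488 in the paired limma fit. This call sat at the threshold. It was lost when the arrays were quantile normalized again (adjusted p = 0.0592 in limma) and without culture 2 (0.105) or culture 3 (0.200).

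SREBF1, its paralogue, read 5.89, 5.73 and 6.02 with DMSO and 5.86, 5.88 and 5.99 with X5050. The groups overlapped, and the changes of the cultures were -0.036, 0.15 and -0.029. The mean change was 0.028 (paired SE 0.091, 95% interval -0.18 to 0.24), with an adjusted p of 0.934 in limma. It was -0.032 without culture 2. The change of SREBF2 was below that of SREBF1 in each culture, with differences of -0.56, -0.84 and -0.41 between their changes (mean -0.60, SD 0.22, n = 3). An exact sign-flip permutation test of this difference gave p = 0.25 (two-sided), the smallest p that 3 cultures allow. It stayed 0.25 after adjustment over the 2 differences tested. The array summarises the gene by 1 probe set, so the SREBF1 isoforms were not told apart. By mean signal SREBF1 was at percentile 42.1 of the tested probe sets and SREBF2 at 70.4. The part of signal level in the difference between their changes was not tested.

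SCAP, the escort that senses sterol and carries SREBP out of the ER, read 7.04, 7.10 and 7.16 with DMSO and 7.27, 7.38 and 7.39 with X5050. All X5050 arrays were above all DMSO arrays, by at least 0.11. The changes of 0.23, 0.28 and 0.23 were the most alike of the 8 genes (SD 0.028). The mean of 0.25 (1.19-fold, paired SE 0.086) did not pass, with an adjusted p of 0.229 in limma.

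INSIG1, the ER anchor that is itself switched on by SREBP, read 8.47, 8.01 and 7.86 with DMSO and 7.32, 6.85 and 7.02 with X5050. The groups were 0.54 apart at their nearest arrays, the widest gap of the 8 genes, and culture 1 was the highest in both. INSIG1 dropped by 1.05 log2 units, or 2.07-fold (SE 0.10, 95% interval -1.28 to -0.82), with an adjusted p of 0.0126 in the paired limma fit. Its change ranked 13 from the lowest of 19460 probe sets and 7 by p. The changes of the cultures were -1.15, -1.16 and -0.84. Left without culture 3, INSIG1 had an adjusted p of 0.0689 at a change of -1.16.

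INSIG2, the second anchor, whose gene is not a classical SREBP target, read 7.29, 7.64 and 7.22 with DMSO and 7.58, 7.74 and 7.62 with X5050. The array of culture 2 with DMSO stood above the X5050 arrays of cultures 1 and 3, so the groups overlapped. The change was above 0 in each culture, at 0.28, 0.099 and 0.41, with a mean of 0.26 (paired SE 0.096). It did not pass (adjusted p = 0.255 in limma). The change of INSIG1 minus that of INSIG2 was -1.44, -1.26 and -1.25 in the cultures (mean -1.31, SD 0.11, n = 3), and the exact sign-flip permutation p was again 0.25, raw and adjusted.

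RNF145, an ER ubiquitin ligase of sterol sensing, read 8.13, 8.38 and 8.24 with DMSO and 9.04, 8.75 and 9.04 with X5050. All X5050 arrays were above all DMSO arrays, by at least 0.37. The change was 0.91 in culture 1 and 0.80 in culture 3 but 0.37 in culture 2, which was the highest culture with DMSO and the lowest with X5050. The mean of 0.70 (1.62-fold, paired SE 0.12, 95% interval 0.43 to 0.97) ranked 30 from the highest of all probe sets and narrowly missed the threshold, with an adjusted p of 0.0555 in the paired limma fit. It passed without culture 1 (0.0464) or culture 2 (0.0236), without dim probe sets (0.0476), with a trend in the variance (0.0225) and with probe sets averaged by gene (0.0478). In limma it did not pass without culture 3 (0.309), with arrays centred on their medians (0.0664) or after a further quantile normalization (0.0517). Nor did it pass with all probe sets tested (0.313), with robust eBayes (0.0555) or without the block (0.234). Each fit without a culture rests on 2 arrays per group.

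MYLIP, the ligase that sends lipoprotein receptors to the lysosome, read 6.12, 6.24 and 6.01 with DMSO and 6.34, 6.12 and 6.23 with X5050. The groups overlapped. The change was 0.22 in cultures 1 and 3 and -0.12 in culture 2, with a mean of 0.11 (paired SE 0.10, 95% interval -0.12 to 0.34) and an adjusted p of 0.706 in limma. The mean was 0.053 without culture 1 or culture 3 and 0.22 without culture 2.

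STARD4, which moves cholesterol between membranes through the cytosol, read 8.69, 8.24 and 8.25 with DMSO and 8.06, 7.31 and 7.57 with X5050. The groups were 0.18 apart, and culture 1 was again the highest in both. STARD4 dropped by 0.75 log2 units, or 1.68-fold (SE 0.097, 95% interval -0.97 to -0.53), with an adjusted p of 0.0326 in the paired limma fit. The changes were -0.64, -0.93 and -0.69, and the change ranked 49 from the lowest. Left without culture 3, STARD4 had an adjusted p of 0.163.

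**Figure D2:**
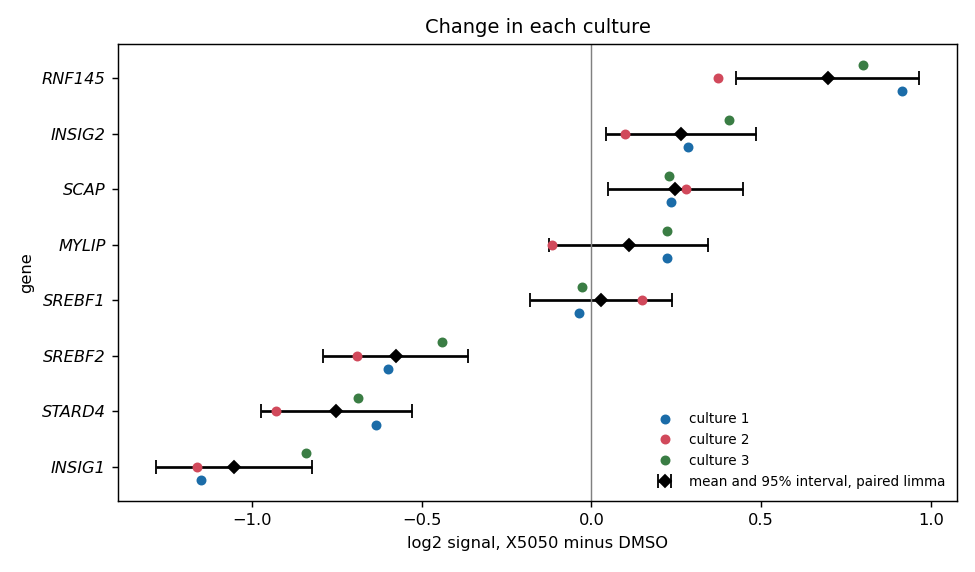
Change of each gene (horizontal axis, log2 signal with X5050 minus DMSO) in each culture (points) with the mean and 95% interval of the paired limma fit (diamonds and bars). INSIG1, STARD4 and SREBF2 lie left of 0 in every culture, RNF145, INSIG2 and SCAP right of 0, and SREBF1 and MYLIP on both sides.

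The block takes out what the arrays of a culture share. For INSIG1 the SE was 0.10 with the block and 0.18 without it, and for STARD4 0.097 and 0.21. For SREBF2 it was 0.093 and 0.11, and for RNF145 0.12 and 0.11. Without the block the adjusted p in limma was 0.244 for INSIG1, 0.363 for STARD4, 0.282 for SREBF2 and 0.234 for RNF145.

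**Figure D3:**
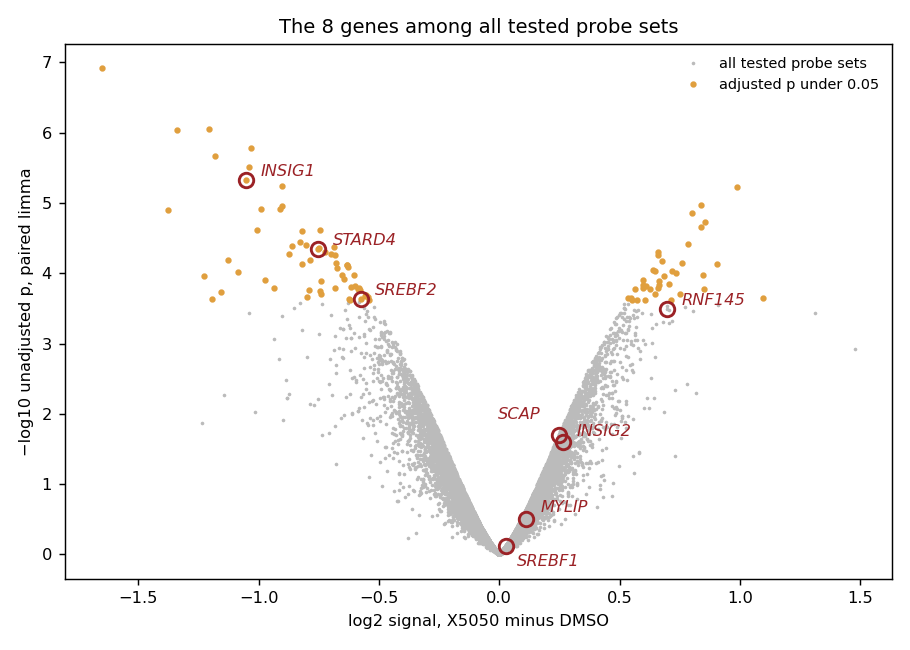
Change (horizontal axis, log2) against −log10 of the unadjusted p of the paired limma fit (vertical axis) for all 19460 tested probe sets, with the 8 genes ringed and named. INSIG1, STARD4 and SREBF2 are among the orange probe sets past the threshold on the lower side, and RNF145 lies just under those on the upper side.

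Over the 6 arrays INSIG1 and STARD4 followed each other most closely among the 3 genes that fell (Pearson r = 0.963), and SREBF2 followed INSIG1 at 0.800 and STARD4 at 0.705. SCAP ran opposite to INSIG1 (-0.987) and RNF145 opposite to it at -0.859. These values describe 6 arrays in 2 treatment groups and hold the treatment difference. Among 17377 other genes the profile most like INSIG1 was that of SZRD1 (r = 0.996), followed by the sterol reductase gene DHCR7 (0.995), POP7 (0.994), TIMM23 (0.993) and the spermidine synthase gene SRM (0.991). STARD4 was most like PRPS1 (0.993), CLIC1 (0.993), the desaturase gene SCD (0.991), the pyruvate kinase gene PKM (0.991) and PFDN1 (0.991). SREBF2 was most like ING3 (0.996), CACNA1D (0.994), TMEM69 (0.992), ZNF33B (0.990) and TMEM97 (0.986). The highest value was 0.995 for SREBF1 and 0.995 for MYLIP, which did not pass. Values of this size over 6 arrays therefore did not set apart the genes that fell.

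The other genes of the pathway were taken from 7 lists, of which 106 of 121 genes had a value here. These lists too were chosen with earlier results of these data known, so their shares are a description. Across them 13 genes (12.3%) fell and 0 rose in the paired limma fit, against 0.308% and 0.190% of all tested probe sets. At an unadjusted p under 0.05 there were 34 genes (32.1%, against 14.5% of all probe sets) with the block and 29 (27.4%, against 9.37%) without it, where 0 passed after adjustment. The number that fell after adjustment in the paired limma fit was 13 with all cultures, 8 without culture 2 and 0 without culture 3. All 13 belonged to the enzyme lists, and in the 5 lists of transport, degradation, uptake, carriers and LXR 0 of 71 genes passed. In these 5 lists 10 genes (14.1%) had an unadjusted p under 0.05 in that limma fit, close to the 14.5% of all probe sets. The median change of all tested probe sets was 0.0092.

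Of the enzymes that make cholesterol, the targets of SREBP2, 10 of 19 fell (0.308% of all probe sets did), all 19 were below 0 (47.3% of all probe sets were) and the median change was -0.63. Those with the smallest p were the last-step reductase DHCR7 (-1.65, paired SE 0.099), the demethylating NSDHL (-1.21, SE 0.093), the synthase HMGCS1 (-1.18, SE 0.10) and the oxidase MSMO1 (-1.04, SE 0.094). The fatty acid and lipid genes linked to SREBP1 had a median of -0.18, which was -0.078 without culture 2. Of these, 3 of 16 fell, against the same 0.308%: FADS2 (-0.83), the lipase PNPLA3 (-0.65) and the malic enzyme ME1 (-0.94, with DMSO arrays of SD 1.26). SCD stood next at -0.49 (adjusted p = 0.0738 in limma). ACACA (0.35) and GPAM (0.26), named after their values were seen, stood above DMSO on every X5050 array and did not pass. They were the 2 of 16 genes that lay entirely above, where 7.51% of all probe sets did. Entirely below lay 5 of the 16, against 7.41%.

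**Figure D4:**
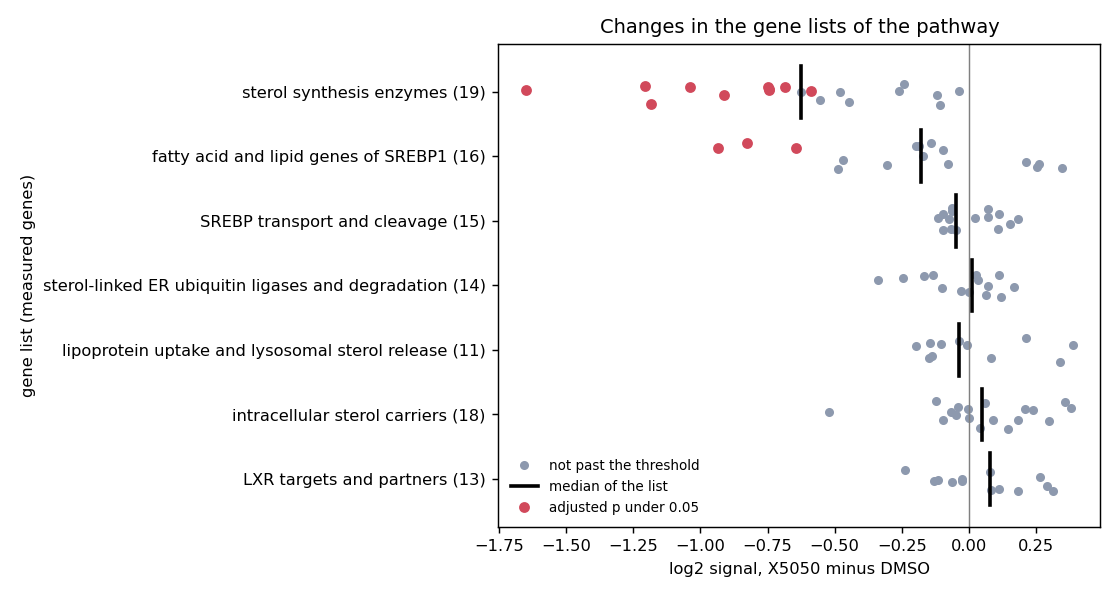
Change of every measured gene (points) in 7 lists (rows, with the number of measured genes), with the list median as a bar and genes past the threshold in red. The enzyme lists extend to the left, where all 13 red points lie, and the medians of the other 5 lists lie between -0.047 and 0.079.

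No gene of the machinery that moves and cuts SREBP passed, which is near the 0.498% of all tested probe sets that did. Its 15 measured genes had a median of -0.047 (0.055 without culture 2 and -0.0039 without culture 1) and lay between -0.12 and 0.18, the highest being the COPII coat subunit SEC24B (0.18), followed in order of p by PAQR3 (0.15), SEC31A (-0.12) and SEC23B (0.11). The site proteases stood at 0.11 for MBTPS1 and -0.074 for MBTPS2, which were singled out after their values were seen. The 14 genes of sterol-linked ER degradation had a median of 0.012, with no settled sign: it was -0.0085, 0.049 and -0.037 without cultures 1, 2 and 3 in turn, -0.0069 with arrays centred on their medians and -0.0026 with probe sets averaged by gene. The conjugating enzyme UBE2G2 was the lowest (-0.34, adjusted p = 0.162 in limma), followed by p by TMUB1 (-0.17), SEL1L (0.17) and VCP (-0.25). RNF139, a ligase related to RNF145 and also picked after its value was seen, stood at 0.065.

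Among 11 genes of lipoprotein uptake and lysosomal sterol release the median was -0.037, and -0.014, 0.021 and -0.098 without cultures 1, 2 and 3 in turn. The endocytic receptors LRP1 (0.34, paired SE 0.089, adjusted p = 0.137 in limma) and SORL1 (0.39, SE 0.13) were the highest, then NPC2 of the lysosome (0.21), while LRP8 stood at -0.15. The 18 carriers had a median of 0.050, and of 0.021, 0.16 and 0.013 without cultures 1, 2 and 3 in turn. TMEM97, a sterol-binding membrane protein, was the lowest at -0.52 and missed the threshold (adjusted p = 0.0549 in limma). GRAMD1C (0.38), OSBPL6 (0.36) and OSBPL1A (0.30), carriers at membrane contacts, lay above on every X5050 array without passing. They were the 3 of 18 carriers entirely above, and 1 lay entirely below, against 7.51% and 7.41% of all probe sets. The 13 LXR targets and partners had a median of 0.079 (0.041 without culture 2 and 0.043 without culture 3), with the exporter ABCA1 at 0.31 (paired SE 0.092, adjusted p = 0.171 in limma), SMPDL3A at 0.29, APOC1 at -0.24 and TTC39B at 0.26.

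The identity of the cells was checked on marker lists. The 14 neural stem cell markers had a mean log2 signal of 9.06 to 9.13 on the DMSO arrays and 9.03 to 9.04 on the X5050 arrays, and NES (-0.42), MSI1 (-0.23) and ZBTB16 (0.22) had their largest changes. SOX2 and PAX6, both picked after their values were seen, read 10.88 and 10.80 on average with DMSO. Single markers of that list ran from 6.43 for SOX1 to 12.07 for FABP7 on average with DMSO. The 13 neuronal markers were bright too, at 9.19 to 9.41 with DMSO and 9.25 to 9.41 with X5050, with the largest changes in SNAP25 (0.66, which rose), SYT1 (0.48) and ELAVL4 (-0.19). Mesenchymal markers were lower in 12 of 15 genes (47.3% of all probe sets were) with a median of -0.13, led by LUM (-1.09, which fell), TAGLN (-0.89) and POSTN (-0.87). Their mean level ranged from 6.86 to 8.22 on the DMSO arrays and from 6.66 to 7.79 on the X5050 arrays, highest in culture 1 in both groups, where INSIG1 and STARD4 were also highest. The medians of their changes were -0.34, -0.15 and -0.065 in cultures 1, 2 and 3, beside changes of INSIG1 of -1.15, -1.16 and -0.84. Astrocyte markers had a median of 0.037, with the largest changes in GJA1 (-0.61, which fell), S100B (0.20) and ALDH1L1 (0.19). Oligodendrocyte lineage markers had a median of 0.036, led by PDGFRA (-0.18), OLIG1 (0.10) and OLIG2 (0.093), and 4 pluripotency markers -0.16, led by DNMT3B (-0.32) and DPPA4 (-0.32), with ZFP42 at 0.0056. No marker reads 0 on this scale, since RMA gives every probe set a signal. The part of these markers in the changes of the 8 genes was not tested. In such bulk RNA fewer cells of a type and less RNA per cell cannot be told apart.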

How the data were processed

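Gene expression was measured in 6 samples (3 DMSO, 3 X5050) labelled from 100 ng of total RNA by the Affymetrix whole-transcript assay, per the labels' protocols. The authors deposited a log2 signal for each probe set. RMA and Partek are named, without versions, per the submitters' processing notes. RMA subtracts background, equalises the arrays and summarises probes, which shrinks the changes of dim probe sets. The genome build of the array annotation is not given in the sources used here. Array medians ran from 5.68 to 5.75, and arrays correlated at 0.984 to 0.993. No detection measure was used, and depth has no meaning for arrays: their number (3 per group) limits the precision.

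The table holds 33297 probe sets. Those with 1 annotated symbol (19460, for 18417 symbols) were tested, 1754 with several symbols and 12083 unnamed here were not. By Entrez identifier 19429 matched RefSeq (GRCh38.p14), and 0 symbols changed. A gene with several probe sets was read from the brightest by mean. Groups and replicate numbers came from the titles. The comparison used limma 3.58.1 (R 4.3.3, lmFit and eBayes, two-sided), with the replicate number as a block, as the rule for these genes asked. Same-numbered arrays deviated together from their group means (Pearson r = 0.255 to 0.365 over all probe sets). Other pairs gave -0.236 to -0.052, but centring each group on its mean builds in part of this contrast. Equal numbers were treated as 1 culture because the rule set the pairing beforehand. The paired fit was run on simulated data whose spread and culture effects came from that fit itself. It recovered 91% of 100 changes of 0.75 log2 units and called 10 unchanged probe sets. Such data meet the assumptions of the fit, so they check the code and not the calls made here. Plots were drawn with matplotlib 3.10.9 in Python 3.11.15.

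The 8 genes, the 7 pathway lists and the 6 marker lists were chosen with earlier results of these data known. The text names all 8 genes, the 4 genes of each pathway list with the smallest paired p, the 3 largest changes of each marker list and, for genes past the threshold, the 5 with the highest correlation over the arrays (symbols of unnamed loci, open reading frames and small RNAs skipped). SEs and intervals are those of the paired limma fit. Alternatives were the fit without the block, other scalings, filters and priors, and leaving out each culture. List genes without a value were not analysed here.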

Additional observations from a re-analysis of the deposited data

How the results depend on the processing

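Alternatives run were no block, centring on array medians, a further quantile normalization, no dim probe sets, all probe sets tested and a variance trend. Further ones were probe sets averaged by gene, robust eBayes added after seeing the data, and each culture left out. Only centring, quantile normalization and leaving out a culture could move the changes of the 8 genes. The other settings alter their SE and p alone, so they are no check of direction. Where all 3 cultures shared a sign, leaving 1 out could not turn it either. SREBF1 turned from 0.028 to -0.032 without culture 2, and 7 of the 8 genes kept their directions. The 3 falls were lost without the replicate block and with all 33297 probe sets tested, at the same changes of -1.05 for INSIG1, -0.75 for STARD4 and -0.58 for SREBF2. In these settings 0 members fell, 0 probe sets rose, 0 fell and 0 pathway genes fell, at smallest adjusted p of 0.172 and 0.284 in limma, with 1824 and 3487 probe sets at an unadjusted p under 0.05. The prior degrees of freedom of eBayes were 6.25 in the paired fit, 3.66 without the block and 3.30 with all probe sets. After the further quantile normalization SREBF2 stood at -0.55 and was lost, and 18 probe sets rose and 33 fell, against 37 and 60. Without dim probe sets 66 rose, and with the variance trend 127 rose and 147 fell. RNF145, at 0.70, became the 1 member that rose in both and with probe sets averaged. With 1 culture left out the probe sets that rose ranged from 0 to 113 and those that fell from 0 to 233, the members that rose from 0 to 1 and those that fell from 0 to 3, and the pathway genes that fell from 0 to 14. The changes then ranged from -1.16 to -0.997 for INSIG1, -0.81 to -0.66 for STARD4, -0.64 to -0.52 for SREBF2 and 0.59 to 0.86 for RNF145, and from 0.23 to 0.26 for SCAP, 0.19 to 0.35 for INSIG2, 0.053 to 0.22 for MYLIP and -0.032 to 0.060 for SREBF1. Without cultures 1, 2 and 3 in turn the groups of 2 arrays did not overlap for 5, 7 and 5 of the 8 genes, against 39.9%, 36.0% and 33.4% of all probe sets. The cause of these shifts was not tested.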
